A study of Mus musculus with 6 samples.

Results

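Cytotoxic lymphocytes kill by releasing granules that hold granzymes, which are serine proteases, and perforin, which forms the pores through which granzymes enter a target cell. Natural killer (NK) cells and CD8 T cells share this machinery, and the T-box factors T-bet (Tbx21) and Eomesodermin (Eomes) direct its genes in both. The 10 genes described here are the granzymes Gzma, Gzmb and Gzmk, the pore gene Prf1, the granule membrane gene Nkg7, the secreted factors Ccl5 and Ifng, the regulators Eomes and Tbx21, and Ncr1, which encodes an activating receptor of NK cells. They were taken by symbol through their Ensembl IDs, and all 10 were found among the 56884 genes of the count table.

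The study models mantle cell lymphoma with Eµ-SOX11CCND1 mice. RNA of 3 spleens from first-passage (P1) transfer recipients was compared with RNA of 3 samples of B cells selected from spleens of wild-type (WT) mice, whose column headers name BL6. The P1 mice are labelled as the first passage of an adoptive transfer, and their libraries come from whole spleen, so the tumour lies among the host's own spleen cells. Eµ is the immunoglobulin heavy chain enhancer, which is active in lymphocytes of the B lineage. The strain and treatment of the recipients, the age of the mice and whether the 3 P1 mice received cells of 1 donor are not given in the sources used here. P1 replicates are numbered 3, 4 and 5 as labelled, and the WT columns, which could not be tied to particular mice, are called WT A, B and C. Cell selection, genotype, tumour and transfer differ between the groups at once and cannot be told apart. The p-values set the difference between the groups against the spread among the 3 samples of each, which may be partly technical. They do not tell which of these differences a gene follows.

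Library totals were 7510327 to 10363396 counts in P1 spleen and 12196413 to 14266132 counts in WT B cells. Genes of the mitochondrial genome took 0.0854% to 17.4% of the counts in P1 spleen, with the highest share in P1 replicate 4, and 0.569% to 1.13% in WT B cells. The summed level of 10 B cell markers was 855 to 2483 CPM (counts per 1000000 of the TMM-scaled library) in P1 spleen and 8043 to 8700 CPM in WT B cells. All 10 of these markers were lower in P1 spleen. The P1 libraries differed from each other in cell makeup, with neutrophil markers highest in replicate 3 and red cell markers highest in replicate 4.

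Of the 10 cytotoxic effector genes, 7 were higher and 0 were lower in P1 spleen, set against WT B cells (edgeR quasi-likelihood test, Benjamini-Hochberg adjusted p under 0.05 over all tested genes). The 7 were Gzmb, Gzmk, Prf1, Nkg7, Ccl5, Ifng and Eomes. Over all 15462 tested genes, 16.9% were called higher and 11.0% lower, together 27.9%. In each of the 7, all 3 P1 libraries lay above all 3 WT libraries, which was the case for 22.9% of tested genes. Another 24.9% of tested genes lay below WT in all P1 libraries, so the groups did not overlap for 47.8%. Gzma, Tbx21 and Ncr1 were not called, and in these the groups overlapped. All 10 genes passed the filter on low counts, which asked for 0.887 CPM of the unscaled total in 3 libraries. Gzmb, Gzmk and Ifng reached it only with their P1 libraries, so these 3 could hardly have passed without being high there, and Gzma and Ncr1 reached it only with their WT libraries. The median log2 fold change of the 10 was 3.76, against 0.02 over all tested genes. Scaling the libraries to their B cell markers moved the median of all genes to 2.71 and the share of higher among called genes to 99.1%, against 60.6% before. Under it Gzma was at 2.85 and called (adjusted p = 0.0200), Tbx21 at 2.39 and called with its sign turned (adjusted p = 0.0133), and Ncr1 at 2.50 with its sign turned (adjusted p = 0.0733). Gzma lay above that median and Tbx21 and Ncr1 below it. All 3 lay nearer to it than their standard errors in the TMM fit (0.89, 0.58 and 1.05). A bulk library cannot tell more cells of a type from more RNA per cell.

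**Figure D1:**
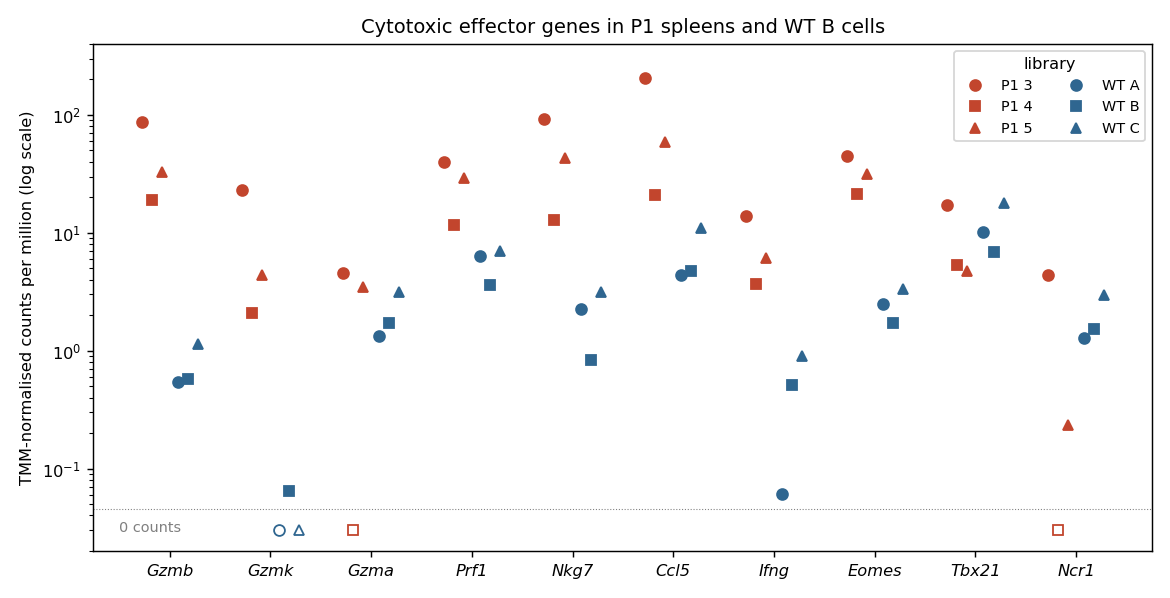
Level of each of the 10 genes in the 3 P1 spleen libraries (red) and the 3 WT B cell libraries (blue), in TMM-normalised CPM on a log axis, with open symbols for libraries at 0 counts. The red points lie above the blue ones for 7 genes, whereas Gzma, Tbx21 and Ncr1 overlap, and P1 replicate 3 is the highest of the P1 libraries for every gene.

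The promoters of 5 of the genes show what lies next to the starts of 3 that rose (Gzmb, Gzmk and Nkg7) and of 2 that were not called (Gzma and Ncr1). Each is the 250 bases before the annotated start, from RefSeq on GRCm38.p6, read 5′ to 3′ on the gene's strand. A RefSeq start need not be the outer end of the gene as counted on GRCm39. For Gzmk it seems not to be, since its RefSeq start lies nearer to that of Gzma than the counted spans would place it. Capitals mark matches on either strand to the T-box core GGTGTG, the RUNX core TGTGGT, the AP-1 site TGANTCA or the cyclic AMP response element core TGACGT. The windows are chr14:56262335-56262584 (minus strand) for Gzmb, chr13:113180966-113181215 (minus) for Gzmk, chr7:43436888-43437137 (plus) for Nkg7, chr13:113100982-113101231 (minus) for Gzma and chr7:4337465-4337714 (plus) for Ncr1.
Gzmb: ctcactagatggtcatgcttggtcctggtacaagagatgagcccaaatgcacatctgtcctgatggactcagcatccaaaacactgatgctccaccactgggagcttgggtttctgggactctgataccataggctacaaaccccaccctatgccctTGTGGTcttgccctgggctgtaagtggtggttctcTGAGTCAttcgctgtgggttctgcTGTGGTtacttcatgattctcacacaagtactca
Gzmk: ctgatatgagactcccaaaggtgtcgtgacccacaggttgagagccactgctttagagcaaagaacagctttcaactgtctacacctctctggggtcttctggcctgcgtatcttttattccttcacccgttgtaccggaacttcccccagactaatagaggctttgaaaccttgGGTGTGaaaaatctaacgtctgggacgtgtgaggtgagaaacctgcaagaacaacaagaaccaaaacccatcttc
Nkg7: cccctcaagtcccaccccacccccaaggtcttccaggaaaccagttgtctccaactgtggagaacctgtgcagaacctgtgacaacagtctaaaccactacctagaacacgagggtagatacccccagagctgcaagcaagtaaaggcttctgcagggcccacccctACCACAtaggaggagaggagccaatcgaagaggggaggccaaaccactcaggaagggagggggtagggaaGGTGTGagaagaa
Gzma: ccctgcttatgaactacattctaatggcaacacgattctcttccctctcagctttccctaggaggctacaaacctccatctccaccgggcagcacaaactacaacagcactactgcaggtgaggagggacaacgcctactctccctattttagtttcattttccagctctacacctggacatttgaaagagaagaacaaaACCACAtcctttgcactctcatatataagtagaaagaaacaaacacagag
Ncr1: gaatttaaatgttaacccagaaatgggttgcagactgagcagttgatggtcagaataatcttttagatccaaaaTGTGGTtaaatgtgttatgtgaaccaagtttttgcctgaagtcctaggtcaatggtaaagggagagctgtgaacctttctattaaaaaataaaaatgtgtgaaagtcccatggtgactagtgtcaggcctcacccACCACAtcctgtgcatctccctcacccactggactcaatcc

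RefSeq promoters were matched for 9 of the 10 genes, the exception being Ccl5. The Gzmb window held an AP-1 match 58 bases before the start, with RUNX matches at 93 and 34 bases before it. Gzmk and Nkg7 were the only ones of the 9 with a T-box match, at 75 and 13 bases before the start, against 16.2% of all 27025 promoter windows of that length. RUNX matches were found in 5 of the 9 (Gzma, Gzmb, Prf1, Nkg7 and Ncr1), against 14.2% of all windows. AP-1 matches were found in 1 of the 9, against 6.87%, and response element matches in 1 (Prf1), against 6.56%. No match overlapped another. Both called and uncalled genes held RUNX matches, and these matches are a description of letters, not of binding.

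Gzmb, the granzyme that activates caspases in the target cell, had 86.9, 19.0 and 32.8 CPM in P1 replicates 3, 4 and 5, against 0.545, 0.578 and 1.13 CPM in WT A, B and C. The lowest P1 library was far above the highest WT library. Gzmb (GRCm39 chr14:56496295-56499717) rose by 5.95 ± 0.69 on the log2 scale (standard error, edgeR adjusted p = 0.000909, n = 3 per group), a fold of 61.7. The log2 fold change was 5.11 without P1 replicate 3.

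Gzmk, a granzyme with trypsin-like activity, had 23.0, 2.08 and 4.41 CPM in P1 replicates 3, 4 and 5, against 0, 0.0642 and 0 CPM in WT A, B and C. In counts these were 267, 9 and 38 in P1 spleen and a single count in WT B. Gzmk (GRCm39 chr13:113308142-113362442) rose (edgeR adjusted p = 0.00301, n = 3 per group). The pooled ratio was 579, with a 95% counting interval of 103 to 22940 that covers counting error only. The fitted log2 fold change was 8.25 ± 1.34, and 6.67 without P1 replicate 3. It was 9.74 without WT B, a value set by the prior count, since WT A and C were at 0.

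Gzma, a trypsin-like granzyme made in quantity by NK cells, was not called. It had 4.56, 0 and 3.48 CPM in P1 replicates 3, 4 and 5, against 1.33, 1.73 and 3.17 CPM in WT A, B and C. P1 replicates 3 and 5 lay just above the WT range, and replicate 4 had 0 counts, which allows up to 0.694 CPM (3 counts of its TMM-scaled library). The log2 fold change of Gzma (GRCm39 chr13:113230359-113237515) was 0.44 ± 0.89 (edgeR adjusted p = 0.748, n = 3 per group), and -0.11 without P1 replicate 3 (adjusted p = 0.946). Gzma and Gzmk lie 70626 bases apart on the same strand, with no other granzyme between them.

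The balance of the 3 granzymes within a library needs no scaling between libraries, and it was looked at after the values above were seen, so no test is given. Gzma made up 3.98%, 0% and 8.55% of the summed Gzma, Gzmb and Gzmk counts in P1 replicates 3, 4 and 5, against 71.0%, 73.0% and 73.7% in WT A, B and C. The exact 95% binomial intervals ran from 0% to 12% over the P1 libraries and from 52.0% to 86.2% over the WT libraries. Gzmb made up 75.9%, 90.1% and 80.6% in the P1 libraries and 29.0%, 24.3% and 26.3% in the WT libraries. The WT shares rest on 31, 37 and 57 granzyme counts and the P1 shares on 1330, 91 and 351. These intervals and the limits given for 0 counts cover counting error only, since reads were counted without molecular identifiers.

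**Figure D2:**
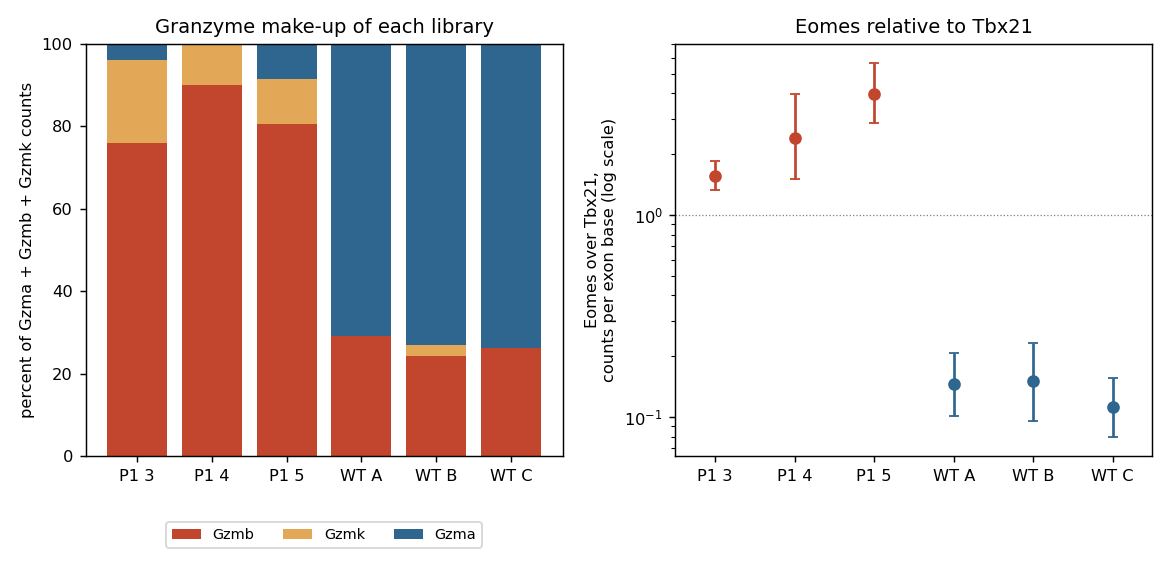
Left, share of the summed Gzma, Gzmb and Gzmk counts taken by each gene in the P1 spleen and WT B cell libraries. Right, Eomes over Tbx21 in counts per exon base on a log axis, with 95% exact counting intervals. Gzmb takes most of the granzyme counts in the 3 P1 libraries and Gzma in the 3 WT libraries, and Eomes exceeds Tbx21 in the P1 libraries alone.

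Gzmb belongs to a run of granzyme genes on chromosome 14, and the other granzymes there were near 0. Gzmd, Gzme, Gzmf, Gzmg and Gzmn, granzymes of the same cluster, had 0 counts in all 6 libraries. Gzmc, 24181 bases from Gzmb, had 4, 1 and 2 counts in P1 replicates 3, 4 and 5, against 0 in WT A and 1 each in WT B and C. Its longest transcript shares 76.6% of aligned bases with that of Gzmb, with a longest identical run of 49 bases, so a few reads could be exchanged between them. Gzma, Gzmb and Gzmk share 57.6% to 59.6% of aligned bases with each other and no identical run over 14 bases. Ctsg, the neutrophil protease gene at the far end of the same cluster, rose by 6.04 (adjusted p = 0.00169). Mcpt8, a basophil protease gene beside it, was at 3.42 (adjusted p = 0.0887). Gzmm, which lies apart on chromosome 10, was at 0.28 (adjusted p = 0.690), with 1.29, 0.694 and 1.04 CPM in the P1 libraries and 0.848, 0.899 and 0.832 CPM in the WT libraries.

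Prf1, which encodes perforin, had 39.7, 11.6 and 29.0 CPM in P1 replicates 3, 4 and 5, against 6.30, 3.60 and 7.03 CPM in WT A, B and C. The groups did not overlap, although the gap was the smallest among the 7 genes called, relative to the WT level. Prf1 (GRCm39 chr10:61133612-61140459) rose by 2.25 ± 0.49 (edgeR adjusted p = 0.0105, n = 3 per group), a fold of 4.77. The call was lost without WT B (1.98, adjusted p = 0.0575).

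Nkg7, which encodes a membrane protein of cytotoxic granules needed for their release, had 92.4, 12.7 and 43.3 CPM in P1 replicates 3, 4 and 5, against 2.24, 0.835 and 3.17 CPM in WT A, B and C. Each P1 library was several times the highest WT library. Nkg7 (GRCm39 chr7:43086497-43087673) rose by 4.58 ± 0.78 (edgeR adjusted p = 0.00374, n = 3 per group), and by 3.76 without P1 replicate 3.

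Ccl5, a chemokine that memory CD8 T cells and NK cells secrete, had the highest mean level per exon base of the 10 in both groups. It had 206, 21.1 and 58.6 CPM in P1 replicates 3, 4 and 5, against 4.36, 4.75 and 11.0 CPM in WT A, B and C. P1 replicate 4 was within a factor of 2 of WT C, and replicate 3 stood far above the others. Ccl5 (GRCm39 chr11:83416604-83421344) rose by 3.83 ± 0.82 (edgeR adjusted p = 0.00975, n = 3 per group), and was at 2.58 without P1 replicate 3. The call was lost without WT B (3.60, adjusted p = 0.0534) and when low-count genes were kept in (3.75, adjusted p = 0.109). In the same chemokine cluster, Ccl9, Ccl6 and Ccl4 rose by 3.64, 3.1 and 2.09 (adjusted p = 0.0133, 0.0170 and 0.0230), and Ccl3 was at 1.19 (adjusted p = 0.212).

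Ifng, which encodes interferon gamma, had 13.8, 3.70 and 6.15 CPM in P1 replicates 3, 4 and 5, against 0.0606, 0.514 and 0.907 CPM in WT A, B and C. WT A held a single count and was the lowest library, and the P1 libraries were all above the WT ones. Ifng (GRCm39 chr10:118276951-118281797) rose by 4.02 ± 0.85 (edgeR adjusted p = 0.00939, n = 3 per group). The value was 3.34 without P1 replicate 3 and 4.73 without WT C, and the call was lost without WT B (4.03, adjusted p = 0.0520). The gene shares 336 exon bases with Gm49751 on the same strand, to which 48, 22 and 40 counts were assigned in the P1 libraries and 2, 1 and 0 in the WT libraries, so its counts are uncertain by that overlap.

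The regulators parted. Eomes, the T-box factor of memory and effector CD8 T cells and mature NK cells, had 44.6, 21.3 and 31.7 CPM in P1 replicates 3, 4 and 5, against 2.48, 1.73 and 3.33 CPM in WT A, B and C. Its P1 libraries were the closest together of the 7 genes called. Eomes (GRCm39 chr9:118307280-118315200) rose by 3.70 ± 0.41 (edgeR adjusted p = 0.000813, n = 3 per group), a fold of 13. It shares 118 exon bases with Gm33460 on the other strand, and the strand setting of the counting is not given in the sources used here.

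Tbx21, whose product T-bet is also made by some B cells, had 17.1, 5.32 and 4.76 CPM in P1 replicates 3, 4 and 5, against 10.2, 6.87 and 17.8 CPM in WT A, B and C. P1 replicates 4 and 5 lay below all WT libraries, and replicate 3 lay just under WT C. The log2 fold change of Tbx21 (GRCm39 chr11:96988897-97006157) was -0.33 ± 0.58 (edgeR adjusted p = 0.706, n = 3 per group). It was -1.21 without P1 replicate 3 (adjusted p = 0.0968), and changed sign to 0.063 without WT C (adjusted p = 0.962).

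Counted per exon base, Eomes stood at 1.56, 2.40 and 3.99 times Tbx21 in P1 replicates 3, 4 and 5, against 0.146, 0.151 and 0.112 times in WT A, B and C. The exact 95% counting intervals were at least 1.32 in every P1 library and at most 0.232 in every WT library. This ratio needs no scaling between libraries. It was chosen after the values were seen and is given without a test.

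Ncr1, the NK cell receptor gene, had 4.39, 0 and 0.232 CPM in P1 replicates 3, 4 and 5, against 1.27, 1.54 and 2.95 CPM in WT A, B and C. In counts these were 51, 0 and 2 in P1 spleen and 21, 24 and 39 in WT B cells. Replicate 3 alone carried the P1 level, and the 0 counts of replicate 4 allow up to 0.694 CPM. The log2 fold change of Ncr1 (GRCm39 chr7:4340723-4348163) was -0.17 ± 1.05 (edgeR adjusted p = 0.924, n = 3 per group). Without P1 replicate 3 it was -3.59 and called lower (adjusted p = 0.0276), while without P1 replicate 4, P1 replicate 5 or WT C it changed sign, to 0.34, 0.35 and 0.21 (adjusted p = 0.832, 0.817 and 0.930).

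**Figure D3:**
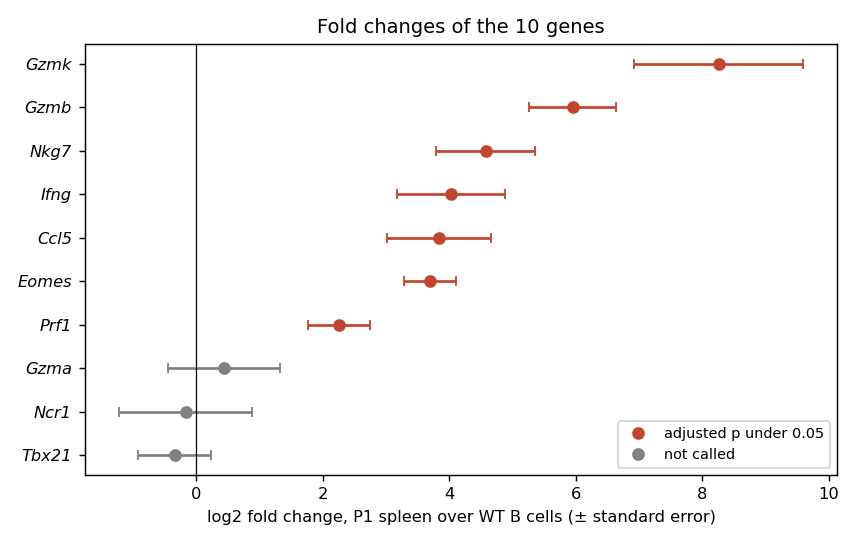
Log2 fold change of each of the 10 genes, P1 spleen over WT B cells, with its standard error, in red where the edgeR adjusted p was under 0.05. Gzmk and Gzmb have the largest estimates, 8.25 and 5.95, and the 3 genes in grey lie between -0.33 and 0.44.

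Levels between genes were compared per kilobase of exon. In P1 spleen the order of the mean level was Ccl5 (99.0 ± 102 CPM per kilobase, SD, n = 3), Nkg7 (54.1 ± 44.0), Gzmb (32.2 ± 25), Prf1 (10.4 ± 5.5), Eomes (7.83 ± 2.81), Gzmk (7.07 ± 8.24), Ifng (6.10 ± 4.09), Tbx21 (3.64 ± 2.80), Gzma (2.66 ± 2.37) and Ncr1 (1.00 ± 1.60). No neighbouring pair in that order was further apart than the sum of its SDs. In WT B cells the order was Ccl5 (7 ± 3.90 CPM per kilobase), Tbx21 (4.66 ± 2.24), Nkg7 (2.28 ± 1.29), Prf1 (2.18 ± 0.70), Gzma (2.07 ± 0.963), Ncr1 (1.25 ± 0.584), Eomes (0.605 ± 0.192), Gzmb (0.524 ± 0.230), Ifng (0.381 ± 0.327) and Gzmk (0.015 ± 0.027). Of these pairs only Ifng and Gzmk were apart by more than the sum of their SDs. Tbx21 was the eighth in P1 spleen and the second in WT B cells, and Gzmb was the third in P1 spleen and the eighth in WT B cells.

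Most T cell markers were higher in P1 spleen, as were 7 of the 10 genes, whereas Gzma, Tbx21 and Ncr1 were not called. Of 16 T cell markers, 15 were higher and 1, Cd2, was lower, against 16.9% higher and 11.0% lower over all tested genes. Their summed level was 378 to 939 CPM in P1 spleen and 220 to 234 CPM in WT B cells, of which Cd2, which mouse B cells also express, made up 160 to 173 CPM in WT. The 6 genes of the CD3 chains and the T cell receptor constant regions (Cd3e, Cd3d, Cd3g, Trac, Trbc1 and Trbc2) summed to 314, 75.0 and 126 CPM in P1 replicates 3, 4 and 5, against 9.88, 5.65 and 9.22 CPM in WT A, B and C. The P1 libraries took the same order for these as for most of the effector genes, with replicate 3 highest and replicate 4 lowest. The summed levels of NK cell, neutrophil, basophil and mast cell, and macrophage and monocyte markers took this order too. Those of B cell, red cell, plasma cell, megakaryocyte, plasmacytoid dendritic cell and gamma delta T cell markers did not. Cd8a, a coreceptor chain of cytotoxic T cells, had 123, 77.1 and 44.0 CPM in the P1 libraries and 1.88, 0.193 and 1.13 CPM in the WT libraries, and rose by 6.23 ± 0.74 (edgeR adjusted p = 0.000919). Cd8b1, the other chain, had 39.2, 6.02 and 14.7 CPM in the P1 libraries and 0.848, 0.0642 and 0.151 CPM in the WT libraries. It rose by 5.75 ± 1.00 (edgeR adjusted p = 0.00393). P1 replicate 4 was thus the lowest P1 library for Cd8b1 but lay above replicate 5 for Cd8a. Cd4 rose by 2.98 ± 0.52 (adjusted p = 0.00420). The part of T cell content in the rise of the effector genes was not tested.

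NK cell markers were at low levels in both groups. Of 9 NK cell markers, 5 passed the filter, and 0 were called in either direction. Their summed level was 17.9, 1.62 and 2.55 CPM in P1 replicates 3, 4 and 5, against 6.67, 7 and 13.1 CPM in WT A, B and C. Klrb1c, which encodes NK1.1, had 59, 0 and 0 counts in the P1 libraries and 22, 24 and 40 in the WT libraries. In P1 replicate 4, 7 of the 9 markers were at 0 counts, and in replicate 5 it was 5 of the 9. Klrb1c, Ncr1 and Gzma all had counts in every WT library, whereas P1 replicate 3 was the only P1 library with counts of all 3. The part of NK cell content in these levels was not tested.

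Set against the T cell receptor genes of the same library, the 10 genes summed to 1696, 1290 and 1708 counts per 1000 counts of the 6 CD3 and receptor genes in P1 replicates 3, 4 and 5, against 2914, 3932 and 5475 in WT A, B and C. The direction was thus opposite to that of the CPM, where the sum was 532, 96.7 and 214 CPM in the P1 libraries and 28.8, 22.2 and 50.5 CPM in the WT libraries, a ratio of means of 8.31, or 4.6 without P1 replicate 3. With all 16 T cell markers as the base, a list in which Cd2 outweighs the rest in WT, the ratio of means was 2.97 in favour of P1 spleen. The narrower base was chosen after the counts of Cd2 were seen. The WT bases were small, at 163, 88 and 122 counts. On the same base the NK cell markers summed to 57.0, 21.6 and 20.3 per 1000 in P1 replicates 3, 4 and 5. In WT A, B and C they summed to 675, 1239 and 1418. Tbx21, which some B cells also make, gave 1031, 1216 and 1926 of the WT sums of the 10 genes. These sums are therefore not a level per T cell.

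On that base, as a description without a test, the genes again split. Gzmb had 277, 253 and 262 counts per 1000 in P1 replicates 3, 4 and 5, against 55.2, 102 and 123 in WT A, B and C. Its P1 values were close together, although its CPM differed widely between these libraries, and all lay above WT. Gzmk had 73.2, 27.8 and 35.1 per 1000, against 0, 11.4 and 0 in WT. Its WT values rest on 1 count in WT B and its lowest P1 value on 9 counts, so this gap is uncertain by counting error. Ifng had 44.1, 49.4 and 49, against 6.13, 90.9 and 98.4 in WT, so that its groups overlapped on this base. Gzma had 14.5, 0 and 27.7, against 135, 307 and 344 in WT. Tbx21 had 54.6, 71.0 and 37.9, against 1031, 1216 and 1926 in WT. Prf1 and Ncr1 lay below all WT libraries in every P1 library too, and Nkg7, Ccl5 and Eomes overlapped.

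**Figure D4:**
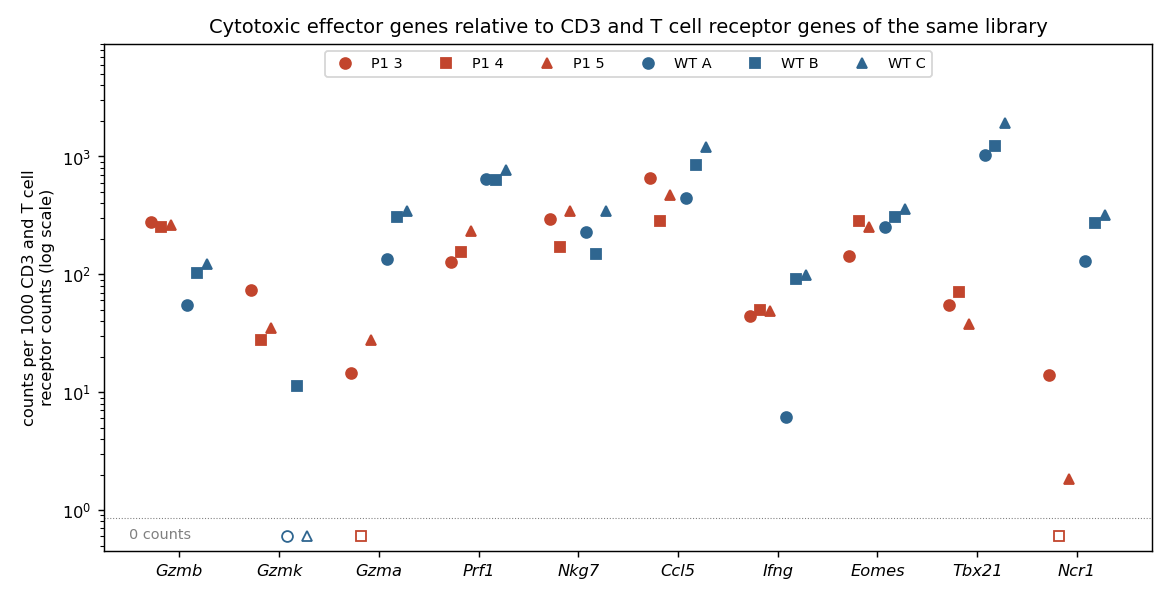
Counts of each of the 10 genes per 1000 counts of 6 CD3 and T cell receptor constant genes of the same library, on a log axis, for P1 spleen (red) and WT B cells (blue), with open symbols at 0 counts. Gzmb and Gzmk lie higher in the P1 libraries, Gzma, Prf1, Tbx21 and Ncr1 lie lower, and the other 4 genes overlap. Gzmk rests on a single count in the WT libraries, so its gap is less certain than that of Gzmb.

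Other genes of the cytotoxic pathway were taken from a list of 69, of which Vamp7 was not matched and 14 of the other 68 did not pass the filter. Of the 54 tested, 26 (48.1%) were higher and 4 (7.41%) lower in P1 spleen, against 16.9% higher and 11.0% lower over all tested genes. The counts by role given next stand beside the same overall shares. Their median log2 fold change was 1.61. Scaled to B cell markers, 48 of the 54 (88.9%) were higher and 0 lower, close to the 87.0% higher over all tested genes under that scaling. The numbers were 17 and 1 without WT B, and the number lower ranged from 1 to 9 when 1 library was left out. Of the genes below the filter, 5 granzymes had 0 counts, and the rest were Gzmc, Zfp683, S1pr5 and 6 receptors.

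**Figure D5:**
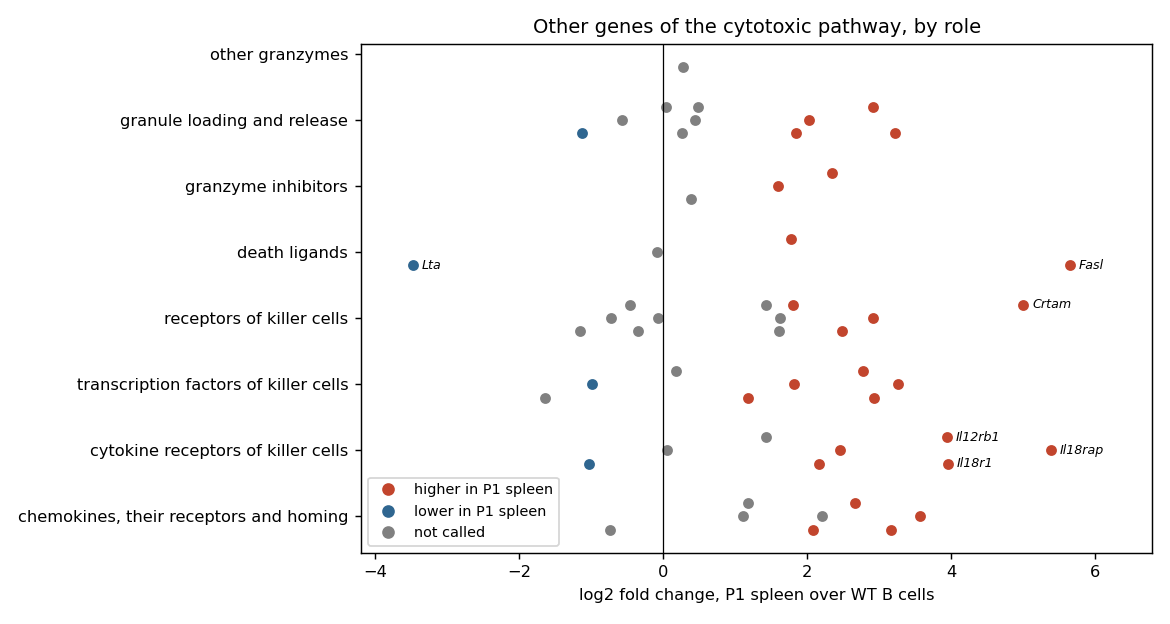
Log2 fold change, P1 spleen over WT B cells, of the 54 tested genes of the wider cytotoxic pathway, grouped by role. Red points were called higher, blue points lower and grey points neither, and a few genes far from 0 are named. Fasl and Il18rap lie furthest to the right and Lta furthest to the left.

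Among genes that load and release granules, 4 of 10 were higher and 1 lower. Cst7 (cystatin F, which controls the proteases that activate granzymes) and Ctsw (a cathepsin of cytotoxic cells) rose by 3.22 ± 0.66 and 2.92 ± 0.56 (edgeR adjusted p = 0.00824 and 0.00594). Stx11 and Rab27a, which act in granule docking and fusion, rose by 2.03 and 1.85 (adjusted p = 0.00265 and 0.00578). Srgn, the proteoglycan that packs granzymes and is also found in other blood cells, fell by 1.12 (adjusted p = 0.0426). Unc13d, another docking gene, was at 0.04 (adjusted p = 0.919), and Ctsc, the protease that activates granzymes, at 0.26 (adjusted p = 0.728).

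Of 3 granzyme inhibitors, Serpinb9, which blocks granzyme B, and Serpinb6b rose by 1.60 ± 0.38 and 2.35 ± 0.38 (edgeR adjusted p = 0.0151 and 0.00309), and Serpina3g was at 0.39 (adjusted p = 0.633). Of 4 death ligands, Fasl had 13.6, 10.6 and 4.76 CPM in P1 replicates 3, 4 and 5, against 0.121, 0.0642 and 0.378 CPM in WT A, B and C, and rose by 5.66 ± 0.74 (adjusted p = 0.00133). Tnfsf10 (TRAIL) rose by 1.78 (adjusted p = 0.0489). Lta, which B cells also make, had 3.78, 0.463 and 1.51 CPM in the P1 libraries and 24.3, 24.3 and 20.8 CPM in the WT libraries, and fell by 3.48 ± 0.58 (adjusted p = 0.00339). Tnf was at -0.08 (adjusted p = 0.906).

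Of 18 receptors and adaptors of killer cells, 12 were tested and 4 were higher. Crtam, a receptor induced on activated cytotoxic T cells, had 16.3, 21.1 and 44.4 CPM in P1 replicates 3, 4 and 5, against 0.788, 0.321 and 1.44 CPM in WT A, B and C, and rose by 5.01 ± 0.64 (adjusted p = 0.00122). It was highest in replicate 5, unlike the 10 effector genes. Fcgr3, Cd244a and Tyrobp, which myeloid cells express as well, rose by 2.91, 2.48 and 1.80 (adjusted p = 0.00717, 0.0255 and 0.0366), with overlapping groups in Tyrobp. Klrk1 (NKG2D) and Klrd1 (CD94) were at 1.42 and 1.62 (adjusted p = 0.151 and 0.0752).

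Of 8 tested transcription factors, 5 were higher and 1 lower. Tox, a factor of chronically stimulated T cells, and Tcf7, a factor of naive and memory T cells, rose by 3.26 ± 0.55 and 2.93 ± 0.80 (edgeR adjusted p = 0.00343 and 0.0265). Id2, Prdm1 and Zeb2 rose by 2.77, 1.81 and 1.18 (adjusted p = 0.00465, 0.00642 and 0.0178). Runx3, expressed in B cells too, fell by 0.99 (adjusted p = 0.0345). Tcf7 was highest in P1 replicate 5, at 126 CPM, against 33.3 and 10.9 CPM in P1 replicates 3 and 4 and 4.43 to 9.30 CPM in the WT libraries.

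Of 8 cytokine receptor genes, 5 were higher and 1 lower. Il18rap and Il18r1, the chains of the interleukin 18 receptor, rose by 5.39 ± 0.55 and 3.97 ± 0.59 (edgeR adjusted p = 0.00066 and 0.00222). Il18rap had 59.8, 65.3 and 23.5 CPM in P1 replicates 3, 4 and 5, against 1.15, 0.642 and 1.74 CPM in WT A, B and C. Il12rb1 and Il2rb, chains of the interleukin 12 and interleukin 2 receptors, rose by 3.95 and 2.46 (adjusted p = 0.000569 and 0.0113), while Il12rb2 was at 1.42 (adjusted p = 0.139). Ifngr2, a chain of the interferon gamma receptor, fell by 1.03 (adjusted p = 0.0401), and Ifngr1 was at 0.06 (adjusted p = 0.935).

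Of 8 tested chemokine and homing genes, 4 were higher. Ccr1, a receptor for Ccl5, rose by 3.17 ± 0.59 (edgeR adjusted p = 0.00541). Cxcr6 rose by 2.67 ± 0.60 (adjusted p = 0.0122). Cx3cr1 was at 2.21 and Cxcr3 at 1.11, with overlapping groups (adjusted p = 0.102 and 0.425). Xcl1, a chemokine of NK and CD8 T cells, was at -0.74 (adjusted p = 0.546), with 1.55, 0 and 0.348 CPM in the P1 libraries and 1.03, 0.835 and 1.89 CPM in the WT libraries.

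Markers of other cell types were read beside these genes. Of 4 markers of megakaryocytes, 3 were tested and 0 called. Their summed level was 54.3, 39.3 and 17.7 CPM in P1 replicates 3, 4 and 5, against 5.15, 18.8 and 44.6 CPM in WT A, B and C. Of 4 markers of plasma cells, 3 were tested and 0 called. Their summed level was 215, 140 and 63.6 CPM in the P1 libraries and 216, 300 and 298 CPM in the WT libraries. Of 6 markers of basophils and mast cells, 2 were tested and 0 called, and their summed level was 60.4, 2.31 and 6.26 CPM in P1 replicates 3, 4 and 5, against 0.970, 0.321 and 3.93 CPM in WT A, B and C. In P1 replicate 4, 3 of these 6 were at 0 counts. Of 4 markers of plasmacytoid dendritic cells, 3 were tested and 0 called. Together the 4 summed to 51.6, 77.3 and 77.4 CPM in P1 replicates 3, 4 and 5. In WT A, B and C they summed to 32.2, 32.6 and 35.2 CPM. Pacsin1 alone made up 26.6, 75.7 and 72.3 CPM of the P1 sums, and its groups overlapped. Siglech, a surface marker of these cells, had 10.7, 0.231 and 1.86 CPM in the P1 libraries. It had 1.27, 2.57 and 4.69 CPM in the WT libraries. Of 6 markers of gamma delta T cells, 1, Sox13, was tested and was higher, and their summed level was 21.9, 9.49 and 5.34 CPM in the P1 libraries and 1.39, 1.16 and 1.21 CPM in the WT libraries. Sox13 alone made up 6.71, 8.33 and 3.36 CPM of the P1 sums. In P1 replicate 4, 3 of these 6 markers were at 0 counts, and in replicate 5 it was 2, with Trdc, the delta chain constant gene, at 22, 2 and 0 counts in the P1 libraries and 7, 5 and 3 in the WT libraries. Of 7 markers of macrophages and monocytes, 3 were higher and 0 lower. Lyz2, Ly6c2 and Ccr2 were at 5.24, 4.70 and 5.30 on the log2 scale (edgeR adjusted p = 0.0143, 0.00388 and 0.0169). Csf1r, C1qb, C1qa and Adgre1 were not called, at 1.16, 1.16, 0.66 and -0.10 (adjusted p = 0.107, 0.0739, 0.234 and 0.934). The summed level of the 7 was 2564, 363 and 700.4 CPM in P1 replicates 3, 4 and 5, against 141, 255 and 368 CPM in WT A, B and C. The P1 libraries took the order of most effector genes, and Lyz2 alone made up 1471 CPM of the sum in replicate 3. All 7 neutrophil markers were higher, with a summed level of 7121, 946 and 2462 CPM in P1 replicates 3, 4 and 5, and 2.31 to 7.41 CPM in WT B cells. The part of these cells in the levels above was not tested.

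The genes whose levels over the 6 libraries were most like the mean profile of the 10 were Plin2, Abcd2, Arl11, Msrb1 and Anpep. Likeness was the root mean squared difference of mean-centred log2 CPM, and it was 0.14, 0.21, 0.22, 0.24 and 0.27 for these genes. Plin2 had 99.1, 18.7 and 51.7 CPM in P1 replicates 3, 4 and 5, against 7.57, 8.09 and 13.1 CPM in WT A, B and C. In the mean profile of the 10 genes too, replicate 3 was the highest of the P1 spleens and WT C the highest of the WT samples.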

How the data were processed

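The table analysed holds raw counts per gene, deposited by the authors for 6 libraries. Per the submitters' processing notes, Trim Galore, HISAT2 and featureCounts were named with genome build GRCm39, and their settings are not given in the sources used here. Of 56884 genes, 51948 (91.3%) had a symbol.

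Members and lists were chosen with earlier results of these data known. Named were all 10 genes, the genes of the wider pathway list and the 5 genes most like the mean profile. Counts were tested in R 4.3.3 with edgeR 4.0.16 (filterByExpr, TMM factors, robust quasi-likelihood fit, Benjamini-Hochberg adjustment, threshold 0.05), after the script was tested on simulated data. Standard errors of the edgeR log2 fold changes were the absolute log2 fold change divided by the square root of the F statistic. Levels are TMM-normalised CPM, and likeness used log2(CPM + 0.5). Alternatives were other scalings, no filter, DESeq2 1.42.0 and leaving out each library. Intervals are exact (Clopper-Pearson), and a count of 0 was read as up to 3 counts. Transcripts were aligned with Biopython 1.88. A single gene compared by exact permutation could not go below p = 0.1 with 3 libraries per group. 1 result of the pathway list is not reported here.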

Additional observations from a re-analysis of the deposited data

How the results depend on the processing

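Gzmb, Gzmk, Nkg7 and Eomes were called higher under each scaling, filter, tool and omitted library tried. B-cell-centred scaling gave 13452 genes higher and 116 lower, 48 pathway genes higher and 0 lower, a summed CPM ratio of 51.3, and log2 fold changes of 2.85 for Gzma, 2.39 for Tbx21 and 2.50 for Ncr1. Keeping low-count genes put Ccl5 at 3.75, not called. With CD3 and T cell receptor genes alone as the base, chosen after seeing the data, the ratio per T cell marker count was 0.381, against 2.97 with all 16 markers. The cause of these shifts was not tested.

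Leaving out 1 library at a time gave 1644 to 3206 genes higher and 815 to 2313 lower, 4 to 7 of the 10 genes higher and 0 to 1 lower, and 17 to 31 pathway genes higher and 1 to 9 lower. The log2 fold changes ranged from -0.11 to 0.98 for Gzma, 1.86 to 2.63 for Prf1, 2.58 to 4.35 for Ccl5, 3.34 to 4.73 for Ifng, -1.21 to 0.063 for Tbx21 and -3.59 to 0.35 for Ncr1. Summed CPM ratios ranged from 4.6 to 11.0. The fewest calls of the 10, 4, came without WT B, where Prf1, Ccl5 and Ifng were not called, and the 1 lower call, Ncr1, without P1 replicate 3. No paired analysis was made because the labels give no pairing between WT and P1 mice. Depth limits the WT levels of Gzmk, Ifng and Gzmb, which rest on 1, 21 and 33 counts over 3 libraries, and also Gzma and Ncr1, at 91 and 84.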
